A study of Mus musculus with 2 samples.

Results

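Spp1, Gpnmb, Trem2, Cd9, Cd63 and Lgals3 are genes by which scar-associated macrophages are recognised, and they were taken as the 6 rows with these symbols among the 27998 genes of the count tables. All 6 were present, each on 1 row. Their transcripts were counted in single cells of mouse lung, as unique molecular identifiers (UMIs, 1 per captured RNA molecule), in 1 library labelled control and 1 labelled fibrosis. Each library held the whole-lung cells of 1 male C57Bl/6J mouse aged 3 months, killed 14 days after particles had been put into its trachea at a dose of 100 µg. Crocidolite asbestos, a fibre that scars the lung, and TiO2, a mineral dust, are both named for each library, and the labels do not state which mouse was given which. With 1 mouse in each group no difference between the libraries has a replicate check, no test was made, and every interval below is a 95% interval for counting error only.

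Osteopontin, the product of Spp1, is a secreted phosphoprotein of the matrix that binds CD44 and integrins. Gpnmb encodes a transmembrane glycoprotein of lysosomes and the cell surface, and Trem2 a receptor for lipids and lipoproteins that signals through the adaptor encoded by Tyrobp. Cd9 and Cd63 encode tetraspanins, membrane proteins of the cell surface and of late endosomes, and Lgals3 encodes galectin-3, a lectin that binds sugar chains of glycoproteins. In scarred liver and lung, macrophages that make these products lie near the fibroblasts that lay down collagen.

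The control library held 8280 cells and the fibrosis library 7173, with medians of 3783.5 and 4292 UMIs per cell, and 7494 and 6549 cells were kept after filters on mitochondrial UMIs and doublets. The libraries shared 89 barcodes. A cell was placed in a class when the mean score of that class's marker genes, none of them among the 6 genes, led all other classes by a fixed margin. This gave 638 control and 869 fibrosis cells with an alveolar macrophage profile (Siglecf, Marco, Krt79 and others), 166 and 393 with an interstitial macrophage profile (C1qa, C1qb and others), 1451 and 349 classical monocytes (Ly6c2, Ccr2) and 330 and 286 nonclassical monocytes (Treml4, Ace). No class was found for 448 control and 551 fibrosis cells. In the alveolar macrophage class all 10 of its markers were detected at 10 CPM or more (CPM, the UMIs of a gene in every 1000000 UMIs of a class), and the summed level of the interstitial macrophage markers was 68.7 CPM in the fibrosis library.

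The promoters of Spp1, Gpnmb and Trem2 are printed because the report turns on where these 3 transcripts met in the same cell. Each stretch is the 250 bases before the RefSeq start on GRCm38.p6, all on the plus strand, at chr5:104434861-104435110 for Spp1, chr6:49036268-49036517 for Gpnmb and chr17:48346151-48346400 for Trem2. Capitals mark matches to letters bound by myeloid factors.
Spp1: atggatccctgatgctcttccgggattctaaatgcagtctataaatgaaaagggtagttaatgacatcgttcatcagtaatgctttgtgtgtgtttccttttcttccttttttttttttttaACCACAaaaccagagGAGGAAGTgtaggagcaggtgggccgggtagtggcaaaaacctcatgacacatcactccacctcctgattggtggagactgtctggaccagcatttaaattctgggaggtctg
Gpnmb: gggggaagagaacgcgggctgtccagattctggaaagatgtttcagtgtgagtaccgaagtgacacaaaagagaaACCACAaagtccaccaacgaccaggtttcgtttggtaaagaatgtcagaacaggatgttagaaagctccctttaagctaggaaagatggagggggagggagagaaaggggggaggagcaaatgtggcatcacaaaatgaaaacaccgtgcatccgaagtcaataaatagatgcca
Trem2: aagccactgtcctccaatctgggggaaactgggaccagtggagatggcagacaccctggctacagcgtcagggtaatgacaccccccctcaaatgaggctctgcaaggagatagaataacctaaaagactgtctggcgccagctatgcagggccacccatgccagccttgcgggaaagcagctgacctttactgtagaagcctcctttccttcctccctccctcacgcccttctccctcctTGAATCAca
Both strands of the 250 bases before and the 50 after the start were searched for GAGGAAGT (PU.1), TGTGGT (RUNX), TGANTCA (AP-1), CACGTG (the E-box of MiT/TFE factors) and TCATGTG (the M-box), and no matches shared bases. Spp1 held GAGGAAGT from position -113 and ACCACA, the other strand of the RUNX letters, from -128. Gpnmb held ACCACA from -175, and an AP-1 match from position 9 in these bases, whose opening ca repeats the end of the stretch above.
Gpnmb start: caggggcaagTGACTCAtgagcacgagttg
Trem2 held an AP-1 match, TGAATCA, from position -9. Among 32817 mouse promoters of the same length, 3.20% held the PU.1 letters, 16.8% the RUNX letters, 7.81% the AP-1 letters, 7.15% CACGTG and 3.78% TCATGTG. The first promoters of Cd9, Cd63 and Lgals3 held none of the 5 patterns. A match is a string of letters and not a measured binding site.

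Spp1 (ENSMUSG00000029304, chromosome 5, 104435118 to 104441050, plus strand, where Gm42793 overlaps it on the same strand) was highest in alveolar macrophages in both libraries among the 14 classes with at least 50 cells in each. In the control library Spp1 stood at 397 CPM (375.6 to 419) in alveolar macrophages, and the next of these classes, type 1 dendritic cells, had 46.6 (31.4 to 66.5, from 30 UMIs). Interstitial macrophages had 9.81 CPM there, which rests on 6 UMIs and could be as high as 21.4 within counting error, and classical monocytes 5.19 (3.69 to 7.10). The level in alveolar macrophages was thus clear of the other 13 classes beyond counting error, while the order of the dendritic cells, neutrophils, NK cells and interstitial macrophages below type 1 dendritic cells was not resolved, since neighbouring intervals overlapped. Among smaller classes 12 control cells with a megakaryocyte or platelet profile had 103 CPM on 10 UMIs and 42 AT1 cells 60.2 on 13 UMIs. In the fibrosis library 5 cells with a smooth muscle cell or pericyte profile had 10315 CPM, with all 241 UMIs in 1 cell.

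In the fibrosis library Spp1 was higher in macrophages of both kinds. Alveolar macrophages had 1692 CPM (1656 to 1728) and interstitial macrophages 1188 (1136 to 1243). The log2 ratio of the fibrosis to the control library was 2.09 (2.01 to 2.18) in alveolar macrophages and 6.92 (5.80 to 8.37) in interstitial macrophages. B and T cells, used here as the measure of free RNA although activated T cells can make osteopontin, had 2.88 CPM in control and 18.7 in fibrosis cells. Their own log2 ratio was 2.70 (1.75 to 3.78), at a median of 2169 and 2606 UMIs per cell. Classical monocytes had 40.1 CPM (30.6 to 51.6) in the fibrosis library and nonclassical monocytes 17.2 (9.64 to 28.4), so that the nonclassical value lay within the interval of the B and T cells. Of the 60 Spp1 UMIs of the classical monocytes 1 cell held 26, and without it the level was 22.7 CPM.

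**Figure D1:**
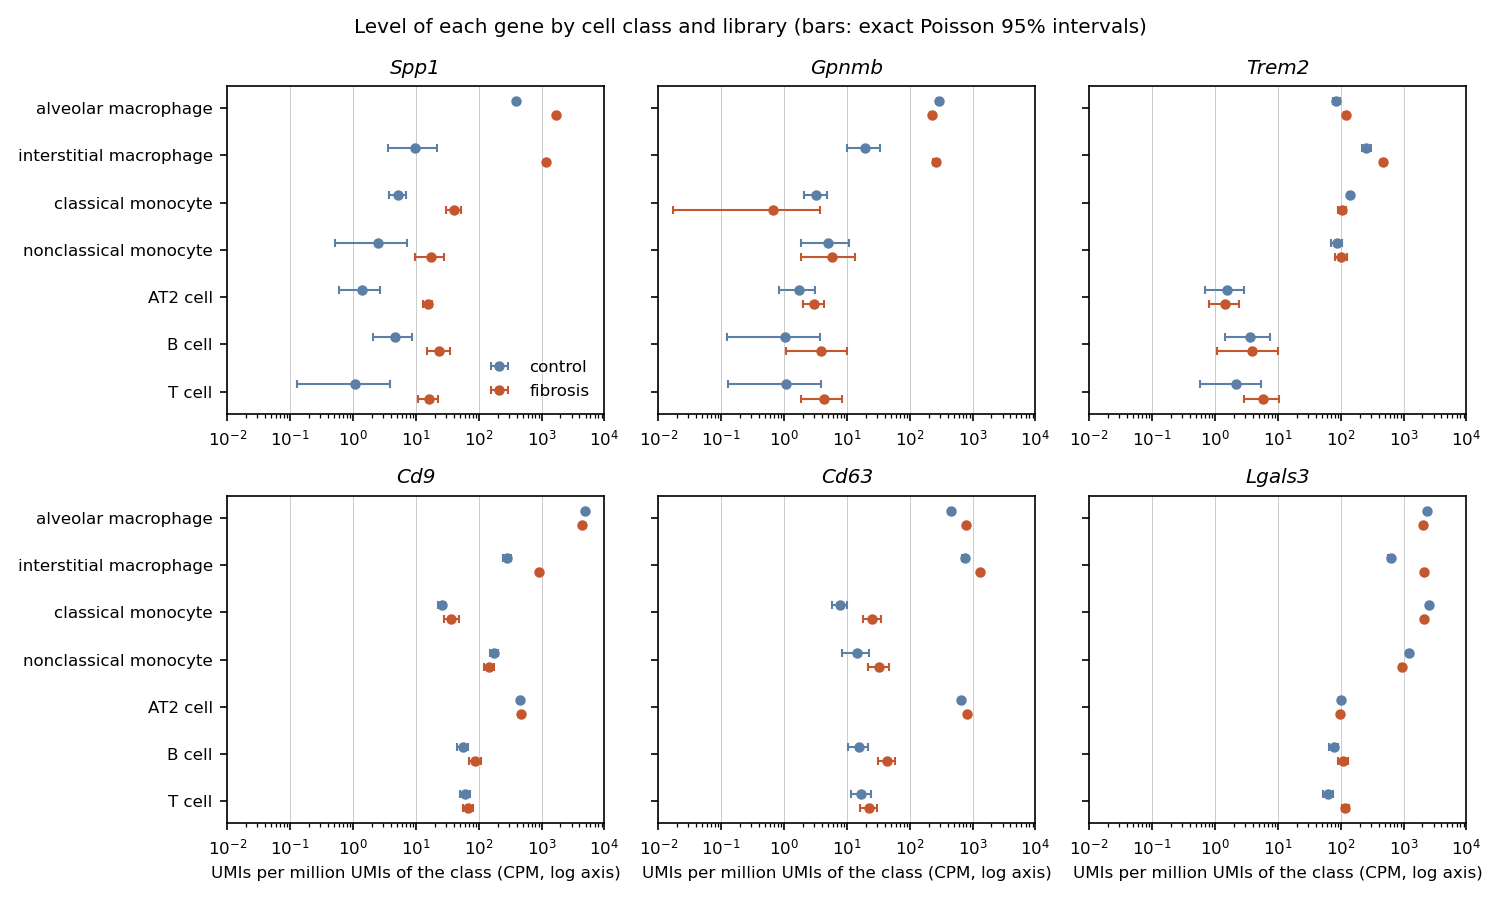
CPM of each gene on a log axis, in 7 cell classes of the control (blue) and fibrosis (orange) libraries, with exact Poisson 95% intervals. Of the 7 classes Spp1 is highest in alveolar macrophages in both libraries, Trem2 in interstitial macrophages, and Lgals3 in classical monocytes of the control library.

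Osteopontin transcripts were spread very unevenly among cells. In the control library the highest alveolar macrophage held 41 Spp1 UMIs and the top 10% of cells held 49.1% of the class's Spp1 UMIs. In the fibrosis library the highest cell held 377 and the top 10% held 75.5%. After each cell was thinned to 1000 UMIs, so that depth is equal, 24.5% (21.2 to 27.98) of control and 39.0% (35.75 to 42.3) of fibrosis alveolar macrophages had at least 1 Spp1 UMI, against 58.9% and 71.6% before thinning. The same thinned shares in B and T cells were 0.520% and 2.52%. The fibrosis library thus had a larger share of alveolar macrophages with the transcript, and within it a small fraction with far more: 51 of 869 cells (5.87%) had at least 5 UMIs at this depth, against 4 of 638 (0.627%) in the control library.

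Gpnmb (ENSMUSG00000029816, chromosome 6, 49036546 to 49070929, plus strand) shared the alveolar macrophages with Spp1 in the control library but not its difference between libraries. Gpnmb stood at 288 CPM (270 to 307) in control and 223 (210.2 to 237) in fibrosis alveolar macrophages, a log2 ratio of -0.37 (-0.50 to -0.24). The sign of this difference followed the definition of the class: it was 0.44 when alveolar macrophages were taken as whole clusters in place of gated cells, and 0.23 when ungated cells of 1 alveolar macrophage cluster, described below, were added. In interstitial macrophages Gpnmb stood at 19.6 CPM (10.1 to 34.3, from 12 UMIs in 3 cells) in control cells and 262 (237.8 to 288) in fibrosis cells, a log2 ratio of 3.74 (2.92 to 4.70). In the fibrosis library 1 interstitial cell held 101 of the 428 UMIs, and without it the level was 202.5 CPM, so the order of the 2 macrophage classes in that library rests on this cell. Monocytes were near the background, with 3.20 and 0.668 CPM in classical monocytes, the latter from 1 UMI, and 1.05 and 4.16 in B and T cells.

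Trem2 (ENSMUSG00000023992, chromosome 17, 48346401 to 48354147, plus strand) followed another order. The lipid receptor was highest in interstitial macrophages in both libraries, at 257 CPM (218 to 300.2) and 475 (442 to 510), a log2 ratio of 0.89 (0.64 to 1.15). In alveolar macrophages it stood at 85.8 (76.1 to 96.5) and 120.4 CPM (110.9 to 130.4), a log2 ratio of 0.49 (0.28 to 0.70). Unlike Spp1 and Gpnmb, it was also carried by monocytes well above the B and T cells, which had 2.88 and 5.19 CPM. Classical monocytes had 139 CPM (130.4 to 147) in control and 105.5 (89.7 to 123) in fibrosis cells, a log2 ratio of -0.39 (-0.64 to -0.15), and nonclassical monocytes 87.4 and 101 with an interval of the ratio that spans 0 (-0.22 to 0.63). In the control library the values of nonclassical monocytes and alveolar macrophages were not separated by their intervals, and in the fibrosis library those of alveolar macrophages and both monocyte classes were not.

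The cells that held most Trem2 UMIs therefore differed between the libraries. Classical monocytes held 56.1% of the Trem2 UMIs of the kept control cells and 7.33% of those of the fibrosis cells, while interstitial macrophages held 8.46% and 36.0%. These shares follow the number of cells of each class as well as the level per cell, and the control library held 1451 classical monocytes against 349. For Spp1 and Gpnmb the alveolar macrophage class held 83.9% and 86.4% of the control UMIs but 52.2% and 42.0% of the fibrosis UMIs. The rest of the fibrosis UMIs lay mainly in interstitial macrophages (12.1% and 16.2%) and in the cells without a class.

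**Figure D2:**
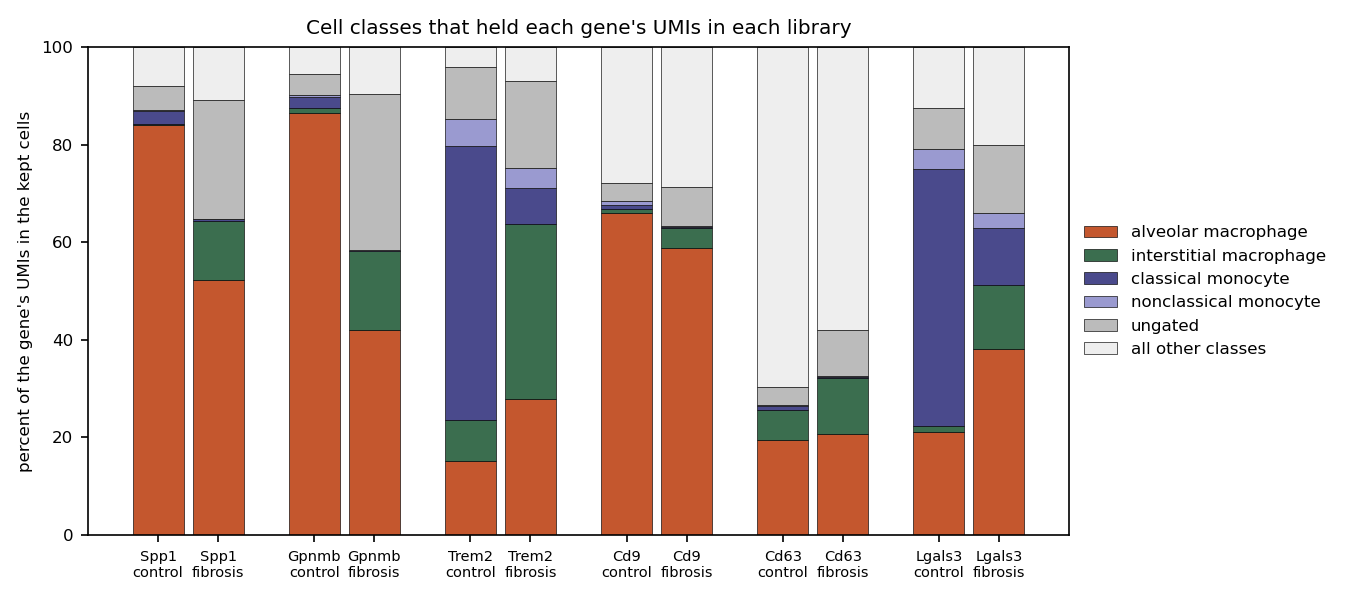
Percent of each gene's UMIs held by each class in the kept cells of each library (stacked bars that sum to 100). The classical monocyte part of Trem2 is 56.1% (control) and 7.33% (fibrosis), and ungated cells hold more of the Spp1 and Gpnmb UMIs in the fibrosis library.

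Of the 6 genes, 1 (Spp1) was at least 2-fold higher and 0 at least 2-fold lower in fibrosis than in control alveolar macrophages. Of all 10151 genes with at least 20 UMIs in that class over both libraries, 3.30% were at least 2-fold higher and 1.86% at least 2-fold lower. In interstitial macrophages 4 of the 6 (Spp1, Gpnmb, Cd9 and Lgals3) were at least 2-fold higher and 0 lower, beside 6.73% higher and 4.20% lower among 7744 genes. This count was 2 (Spp1 and Gpnmb) with whole clusters in place of gates, where Cd9 and Lgals3 had log2 ratios of 0.54 and 0.48, and also without the cluster led by Mmp12 described below, where they had 0.70 and 0.60. In classical monocytes Spp1 and Cd63 were at least 2-fold higher and Gpnmb, on 25 UMIs in all, lower, beside 4.57% and 2.81% of 9494 genes. Gpnmb had 24 control UMIs and 1 fibrosis UMI, so it reached the minimum of 20 through the control library. The interval of its log2 ratio spans 0 (-7.62 to 0.36). Spp1 had a ratio of 2.95 (2.34 to 3.57) there, beside 2.70 in B and T cells, and 1 cell held 26 of its 60 fibrosis UMIs. In nonclassical monocytes 4 of the 6 had enough UMIs and 1, Cd63, was at least 2-fold higher, beside 3.41% higher and 2.62% lower among 6692 genes. The median log2 ratio of the 6 genes was 0.15 in alveolar and 1.74 in interstitial macrophages, and that of all genes measured was -0.06 and -0.02.

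The tetraspanins and galectin-3 were abundant in control macrophages already. Cd9 (ENSMUSG00000030342, chromosome 6, 125460266 to 125494791, minus strand, where 2 genes lie on the other strand) stood at 4979 CPM (4903 to 5056) in control and 4375 (4317 to 4434) in fibrosis alveolar macrophages, a log2 ratio of -0.19 (-0.22 to -0.16). In interstitial macrophages it stood at 281 (241 to 327) and 911 CPM (865 to 959). Nearly every alveolar macrophage had the transcript, in 97.0% of control and 94.7% of fibrosis cells at 1000 UMIs. Cd9 was also carried by endothelial cells, at 1052 and 1355 CPM, so it was not a macrophage transcript alone.

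Cd63 (ENSMUSG00000025351, chromosome 10, 128900989 to 128912822, plus strand), the tetraspanin of late endosomes, was higher in fibrosis macrophages of both kinds. It stood at 446 (424 to 470) and 779 CPM (754 to 804) in alveolar macrophages and at 754 (687 to 826) and 1329 (1273 to 1386) in interstitial macrophages. The log2 ratios, 0.80 (0.72 to 0.89) and 0.82 (0.67 to 0.97), were close to one another, and that in B and T cells, from 16.2 and 29.8 CPM, was 0.88 (0.39 to 1.37). Outside the cluster led by Mmp12 described below, the ratio in alveolar macrophages was 0.17 (0.06 to 0.28). With whole clusters in place of gates it was 1.20 in alveolar and 0.14 in interstitial macrophages. Epithelial AT2 cells, the secretory cells of the alveolus, had 645 and 813 CPM and held more Cd63 UMIs than any macrophage class. Lgals3 (ENSMUSG00000050335, chromosome 14, 47367751 to 47386160, plus strand) was highest in classical monocytes of the control library, at 2537 CPM (2501 to 2574). Galectin-3 transcripts stood at 2344 (2292 to 2397) and 2072 CPM (2032 to 2112) in alveolar macrophages, a log2 ratio of -0.18 (-0.22 to -0.14) that was 0.092 when whole clusters were used. In interstitial macrophages Lgals3 stood at 623 (562 to 689) and 2152 CPM (2082 to 2225), and in the fibrosis library the intervals of interstitial macrophages, classical monocytes and alveolar macrophages, in that order, overlapped between neighbours.

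**Figure D3:**
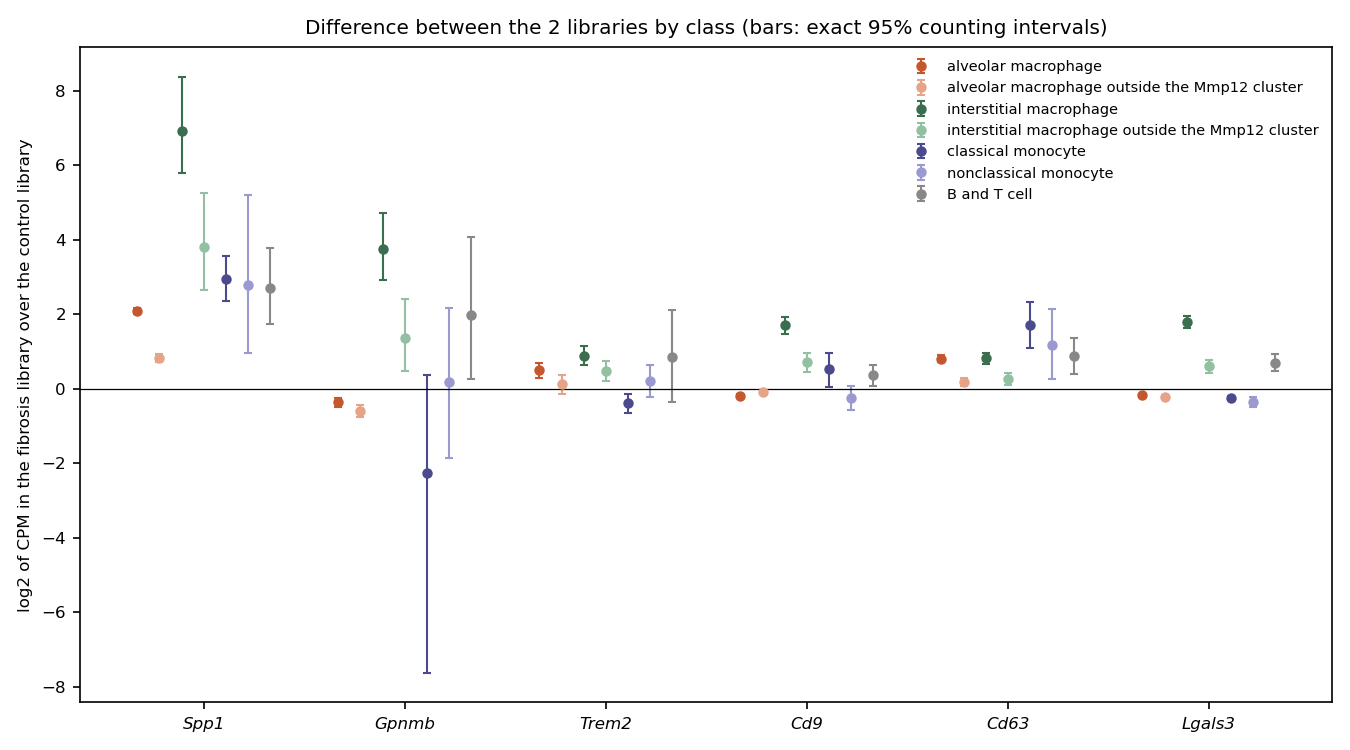
Log2 ratio of CPM, fibrosis over control library, for the 6 genes in 7 sets of cells, with exact 95% counting intervals and a line at 0. The paler points leave out the cluster led by Mmp12, and the Spp1 points of alveolar macrophages stand at 2.09 with it and 0.83 without it.

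Clustering of both libraries together, with the 6 genes left out of the variable genes, divided the alveolar macrophages into 1 cluster led by Fabp1, Ear1 and Krt79, genes of the resident cell, 1 led by Mmp12, the macrophage elastase, and 1 of cycling cells. The cluster led by Mmp12 held 32 control and 434 fibrosis cells, so that it is mostly a cluster of 1 library and may hold features of that library. These 434 cells were 6.63% of the kept fibrosis cells and 8.60% of their UMIs, yet they held 81.6% of the Spp1, 70.0% of the Gpnmb and 47.3% of the Trem2 UMIs of the library. The shares of Cd63, Cd9 and Lgals3 UMIs were lower, at 26.5%, 27.7% and 34.2%. Within the fibrosis library Spp1 stood at 4480 CPM (4404 to 4557) in this cluster and 591 (562 to 620) in the cluster led by Fabp1, a log2 ratio of 2.92 (2.85 to 3.00).

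Gpnmb and Trem2 separated the same pair of clusters. Gpnmb stood at 631 CPM (603 to 660) and 167 (152 to 182), a log2 ratio of 1.92 (1.77 to 2.07), and Trem2 at 347 (326 to 369) and 83.7 (73.3 to 95.1), a log2 ratio of 2.05 (1.85 to 2.26). Cd63 had a ratio of 1.87 (1.78 to 1.96), Lgals3 one of 0.75 (0.70 to 0.80) and Cd9 one of -0.44 (-0.48 to -0.40), so the surface tetraspanin was the only 1 of the 6 that was lower in the cluster led by Mmp12. Of the 6 genes 4 were at least 2-fold higher and 0 at least 2-fold lower, beside 4.56% and 3.85% of 9540 genes. Since the clusters were drawn on other genes of the same cells, these ratios describe the clusters and test nothing. The median depth was 6149.5 UMIs per cell in the cluster led by Mmp12 and 4671 in the other.

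The difference between libraries in alveolar macrophages was smaller outside this cluster for Spp1, Trem2, Cd9 and Cd63, and larger for Gpnmb and Lgals3. Among gated alveolar macrophages outside it, Spp1 stood at 388 CPM (366 to 410.2) in 612 control and 688 (659 to 718) in 591 fibrosis cells, a log2 ratio of 0.83 (0.72 to 0.93). Trem2 stood at 78.6 and 85.3 CPM there, with an interval of the ratio that spans 0 (-0.14 to 0.37), and Gpnmb at 259 and 171, a ratio of -0.60 (-0.76 to -0.44). Over all cells of the cluster, gated as alveolar macrophages or not, Spp1 was the member that set the libraries apart most. It stood at 588 CPM (481 to 712) in the 32 control cells and 4480 in the fibrosis cells, a log2 ratio of 2.93 (2.65 to 3.22). Gpnmb stood at 840 (711 to 986) in those 32 control cells and 631 in the fibrosis cells, and 1 control cell held 30 of its 150 UMIs. Among only the gated alveolar macrophages inside the cluster, Gpnmb stood at 897 CPM in 26 control and 308 in 278 fibrosis cells. The log2 ratio was -1.54 (-1.82 to -1.26) for Gpnmb and 2.49 (2.19 to 2.82) for Spp1 there. For Trem2 it was -0.42 in these gated cells, with an interval that spans 0 (-0.93 to 0.12). Over all cells of the cluster Trem2 stood at 202 CPM in control and 347 in fibrosis cells, a ratio of 0.78 (0.31 to 1.31). Between the 5 control and 92 fibrosis cells of the cluster without a class, Gpnmb had a ratio of 1.04 (0.37 to 1.80). Trem2 had 3.82 (1.33 to 9.12) there, on 1 control UMI.

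**Figure D4:**
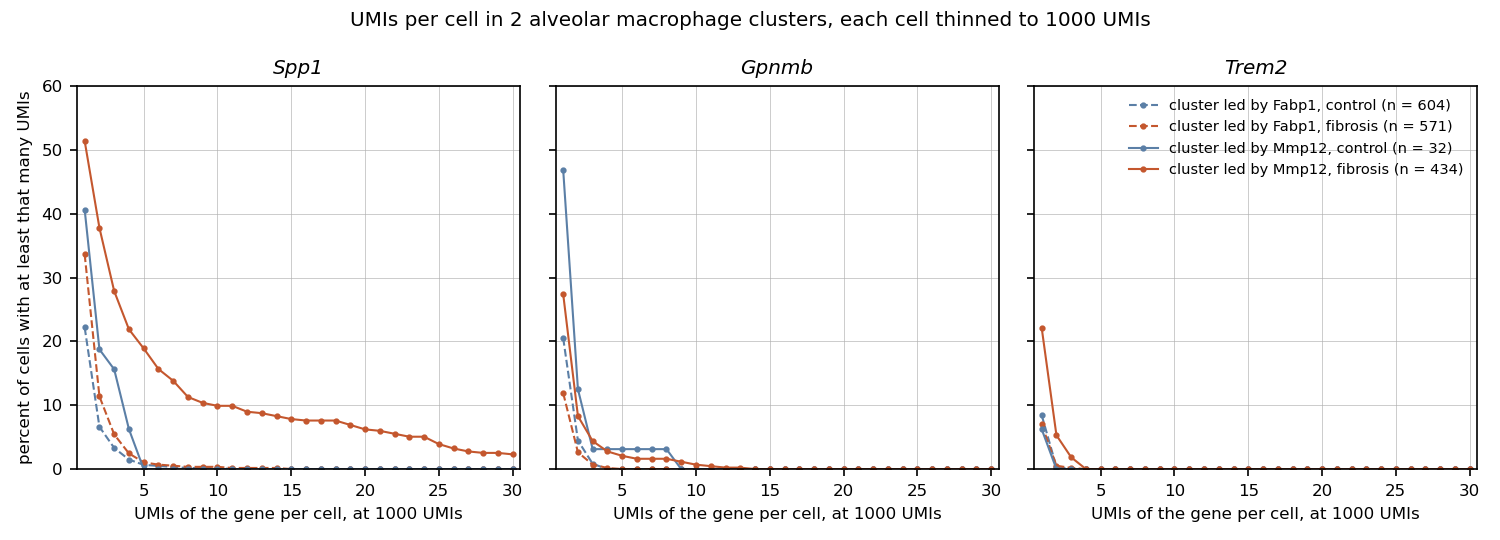
Percent of cells (vertical) with at least a given number of UMIs of the gene (horizontal), each cell thinned to 1000 UMIs, in the alveolar macrophage clusters led by Fabp1 (dashed) and by Mmp12 (solid) of the control (blue) and fibrosis (orange) libraries. The Spp1 curve of fibrosis cells in the cluster led by Mmp12 stays highest, with 18.9% of cells at 5 UMIs or more.

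The marker gate cut through this cluster. Of its 434 fibrosis cells, 278 passed as alveolar macrophages, 44 as interstitial macrophages and 92 had no class. The remaining cells passed as other classes. Of the cluster's Spp1 UMIs in that library the alveolar cells held 47.9%, the unclassed 28.7% and the interstitial 13.4%, and the remaining cells held the rest. The 44 carried both sets of markers, with summed levels of 23758 CPM for the alveolar and 5212 for the interstitial macrophage markers, against 66718 and 85.7 in the 278. Their median doublet score was 0.0278, against 0.0174 in the cluster and 0.0118 in the library. Cells marked as doublets, with a lowest score of 0.107, had been removed before clustering. No kept cell could thus score above that, and the limit tells nothing about the 44. Whether the 44 are pairs of cells or single cells was not tested.

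Among the alveolar, unclassed and interstitial cells of the cluster, all of the 6 but Cd9 were lowest in those of the alveolar macrophage gate. From the 278 alveolar to the 92 unclassed and the 44 interstitial cells, Trem2 stood at 178 (159 to 198), 527 (469 to 590) and 903 CPM (806 to 1008). Cd63 stood at 1309, 1974 and 2877 CPM and Lgals3 at 2245, 3655 and 6565 CPM in the same order, while Cd9 had 3869, 2708 and 2566. Gpnmb stood at 308 (284 to 334), 1386 (1291 to 1486) and 1034 CPM (930.3 to 1146), and Spp1 at 3329, 6614 and 5033 CPM, so both were highest in the cells without a class. The unclassed 92 cells, 21.2% of the cluster, held 42.6% of its Gpnmb UMIs.

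The same 44 cells carried most of what interstitial macrophages showed for Spp1 and Gpnmb, and no control cell of that class lay in the cluster. Outside it Spp1 stood at 136 CPM (116 to 157) in 349 fibrosis cells, a log2 ratio to the control of 3.79 (2.64 to 5.26), in place of 6.92. Gpnmb stood at 50.7 CPM (39.1 to 64.6), a ratio of 1.37 (0.47 to 2.39) in place of 3.74, and Trem2 at 358 (326 to 392), a ratio of 0.48 (0.22 to 0.75). Cd9, Cd63 and Lgals3 gave 0.70 (0.46 to 0.96), 0.26 (0.11 to 0.42) and 0.60 (0.43 to 0.77). All 6 therefore stayed higher in the fibrosis library beyond counting error. In these 349 cells 3 cells held 47.7% of the Spp1 UMIs.

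A few cells of other classes carried very high counts. Spp1 in endothelial cells stood at 8.24 CPM in control and 982 in fibrosis cells, but 1 cell with 34821 UMIs held 764 of the class's 774 Spp1, 86 of its 98 Gpnmb and 34 of its 38 Trem2 UMIs. That cell also held 426 Mmp12 UMIs and lay in the cluster led by Mmp12. Without it Spp1 stood at 13.3 CPM in the class, on 10 UMIs, beside 18.7 CPM in B and T cells of that library. In club cells, secretory cells of the airway, 3 cells held 84.2% of the 222 Spp1 UMIs.

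Cells with Spp1, Gpnmb and Trem2 together were found in macrophages of both libraries. At 1000 UMIs per cell 4 of 638 control alveolar macrophages (0.627%, 0.171 to 1.60) and 8 of 869 fibrosis ones (0.921%, 0.398 to 1.81) had all 3, and the intervals overlapped. The products of the 3 single shares, which give the share if the transcripts fell on cells independently, were 0.446% and 0.589%, inside those intervals. Without thinning the shares were 13.2% and 18.2%. Among interstitial macrophages 0 of 166 control cells, which allows a share of up to 1.81% of cells with UMIs of all 3 at this depth, and 10 of 393 fibrosis cells (2.54%, 1.23 to 4.63) had all 3, and the product there was 0.220%. Outside the cluster led by Mmp12 1 of 349 had all 3.

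In the fibrosis library the cluster led by Mmp12 held most of the cells with all 3 transcripts. There 23 of 434 fibrosis cells (5.30%, 3.39 to 7.85) had all 3 at 1000 UMIs, against a product of 3.12%, and 36.9% without thinning. In the cluster led by Fabp1 the counts were 3 of 604 control and 1 of 571 fibrosis cells. Of all 6549 kept fibrosis cells 26 had all 3, and of all 7494 kept control cells 4. In monocytes, B cells and T cells of both libraries no cell had UMIs of all 3, with or without thinning.

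**Figure D5:**
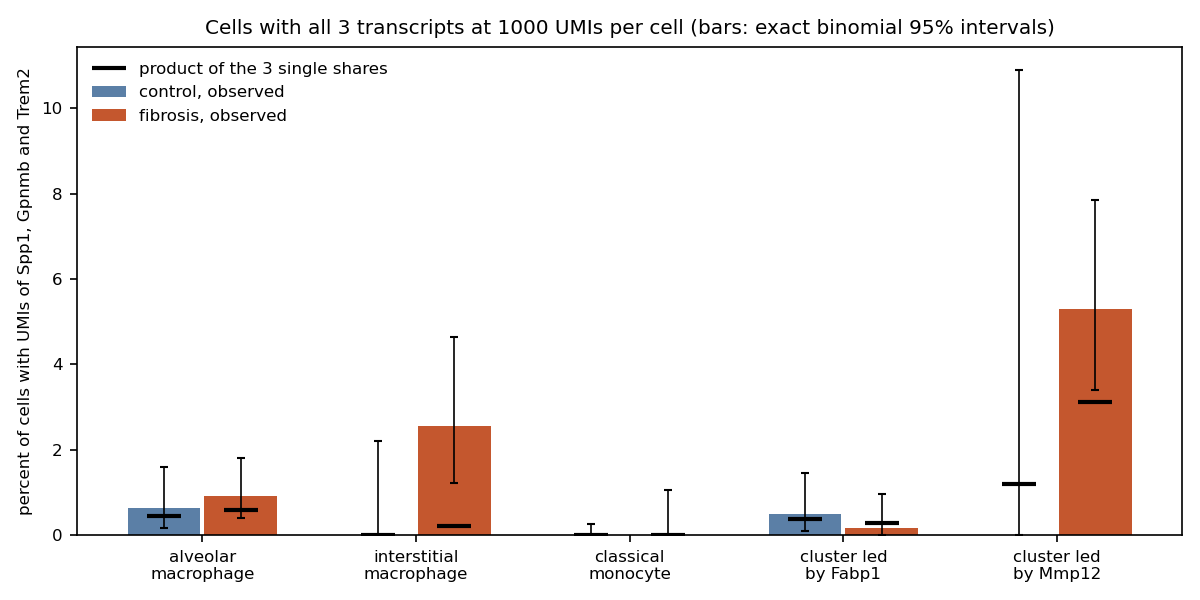
Percent of cells with UMIs of Spp1, Gpnmb and Trem2 at 1000 UMIs per cell (bars, with exact binomial 95% intervals) and the product of the 3 single shares (black dashes), in 5 sets of cells of each library. The fibrosis bar of the cluster led by Mmp12 reaches 5.30%, against a product of 3.12%.

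Pairs of transcripts met more often than their single shares in some classes. In fibrosis interstitial macrophages 30.2% of cells with an Spp1 UMI and 4.0% of those without had a Gpnmb UMI, and Trem2 was found in 66.7% of cells with and 26.5% of cells without Gpnmb. In alveolar macrophages the pairs were looser: 30.1% of control cells with Spp1 and 19.3% of those without had Gpnmb, and in the fibrosis library the values were 16.2% and 14.3%. Spp1 and Cd63 went with one another in fibrosis alveolar macrophages (49.9% against 35.7%) but not in control ones (25.0% against 30.1%). All 6 transcripts were found together in 4 of 869 fibrosis alveolar macrophages, 8 of 393 fibrosis interstitial macrophages and no control macrophage at this depth. Outside the cluster led by Mmp12 1 of 349 fibrosis interstitial macrophages had all 6. The pair shares of fibrosis interstitial macrophages above likewise include the 44 cells of that cluster with both sets of markers.

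Other genes of the scar-associated and lipid-associated programme were counted from a list of 26, of which 24 were measured. In alveolar macrophages 6 were at least 2-fold higher in the fibrosis library (Mmp12, Mmp14, Syngr1, Fn1, Lgmn and Ctsk) and 0 lower, with a median log2 ratio of 0.36. Of all 10151 genes there 3.30% were at least 2-fold higher and 1.86% lower. Mmp12, the elastase, stood at 2.76 CPM (9 UMIs) in control and 763 in fibrosis cells, a log2 ratio of 8.11 (7.19 to 9.24). Mmp14, a membrane-bound collagenase, stood at 0.613 (2 UMIs) and 3.82 (19 UMIs), a ratio of 2.64 (0.59 to 5.79). Both passed the minimum of 20 UMIs mainly through the fibrosis library. At the lower end Plin2, which coats lipid droplets, had a ratio of -0.34 (-0.41 to -0.26) and Axl, a receptor through which dying cells are taken up, one of -0.22 (-0.31 to -0.12). Apoe, a lipoprotein that binds the Trem2 receptor, had 109 and 105.5 CPM in alveolar macrophages and 21052 and 10897 in interstitial macrophages. In interstitial macrophages 13 of 24 were at least 2-fold higher, with a median of 1.05, beside 6.73% of 7744 genes. The count was 7 of 22 in classical monocytes, beside 4.57% of 9494 genes. It was 0 of 20 in nonclassical monocytes, beside 3.41% of 6692 genes. In the lymphocytes used as background, 8 of 18 were at least 2-fold higher in T cells, beside 5.20% higher and 1.33% lower among 8197 genes, and 2 of 17 were higher (Fabp5 and Mmp12) and 1 lower (Fn1) in B cells, beside 4.10% and 2.28% of 7762 genes.

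Of the receptors of osteopontin 0 of 6 measured in alveolar macrophages were 2-fold higher or lower (median log2 ratio -0.08), and Cd44 stood at 1310 and 1596 CPM, a log2 ratio of 0.28 (0.23 to 0.34), while the integrin gene Itga4 had -0.49 (-0.81 to -0.17). None of 11 genes of Trem2 signalling, ligands and shedding passed 2-fold (median -0.06): Tyrobp, its adaptor, had -0.22 (-0.25 to -0.18), Adam10, the protease that sheds it, 0.39 (0.16 to 0.62) and Treml4 -0.75 (-1.53 to 0.02). None of 9 MiT/TFE factors and lysosomal targets did so (median 0.03), Mitf with 0.12 (-0.25 to 0.49) and Atp6v1h, a proton pump subunit, with 0.45 (0.20 to 0.71). Other tetraspanins gave 0 of 11, with Cd81 at -0.53 (-0.67 to -0.39), and other galectins and their ligands 0 of 6, with Lgals1 at 0.05 (-0.02 to 0.12).

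Of the growth factors and cytokines that macrophages make and that act on fibroblasts or on macrophages themselves, 3 of 6 measured in alveolar macrophages were at least 2-fold higher (Igf1, Csf1 and Il1b), with a median log2 ratio of 1.17. The share over all 10151 genes in that class was 3.30%. Igf1, insulin-like growth factor, stood at 30.0 and 154 CPM, a ratio of 2.36 (2.05 to 2.67), and Csf1, the growth factor of macrophages, on 4 and 18 UMIs, at a ratio of 1.56 (-0.04 to 3.58). Tgfb1 had the lowest ratio, -0.60 (-0.73 to -0.46). Among 6 osteoclast genes 1, Ctsk, a collagen-degrading protease, was 2-fold higher, at 417 and 870 CPM. Of 9 housekeeping genes 0 passed 2-fold, with a median of -0.13, from -0.42 for Gapdh to 0.28 for B2m.

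The genes whose counts followed Spp1 most closely across the 869 fibrosis alveolar macrophages, by Pearson correlation of thinned log counts among 2605 genes, were Ctsl (0.325), Wfdc17, Chil3, Mmp12 and Fabp5 (0.199). In the 638 control cells the same 5 correlations ranged from -0.029 to 0.089. For Gpnmb they were Ctsd (0.204, and 0.185 in control cells), Fth1, Slc39a2, Ftl1 and Rgcc, and for Trem2 Ctsb (0.161, and 0.010 in control cells), Caprin1, Actn1, Wsb2 and Mmp12. Cells of 1 library share their depth and free RNA, and correlations this weak in sparse counts describe these cells only.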

How the data were processed

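The deposited values are raw UMI counts per gene and cell, which the authors made with bcl2fastq and Cell Ranger 1.3 on mm10, per the submitters' processing notes; the annotation is not given in the sources used here. Positions come from GENCODE M21 (GRCm38), in which 27645 of 27998 identifiers (98.7%) occur. Control cells held 36632591 UMIs in all and fibrosis cells 38090308. Cells with under 200 genes or over 10% mitochondrial UMIs were left out. Doublets were scored against simulated pairs and the top share expected at 0.8% per 1000 cells was removed (548 and 412 cells).

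Class scores were means of standardised log expression over marker lists, with a lowest score of 0.5 and a margin of 0.3. Of 14 classes with at least 50 cells in each library, 4 are described in full. Clusters (Leiden, resolution 1, 30 components, scanpy 1.11.5, python-igraph 0.11.9) used 2000 variable genes without the 6 genes. Free RNA was not subtracted. CPM carry exact Poisson, ratios exact conditional and shares exact Clopper-Pearson intervals (scipy 1.17.1), and a count of 0 was given a limit of 3 counts. UMIs are molecules, but intervals cover counting error only. Calls of 2-fold used genes with at least 20 UMIs in the class. The calculation was tested on simulated data. From each list the 2 highest and 2 lowest log2 ratios in alveolar macrophages may be named, with Cd44, Tyrobp, Apoe, Mmp12, Mitf, Cd81 and Lgals1; the 6 genes and the 5 genes most like each of Spp1, Gpnmb and Trem2 are named as well. Other genes named were chosen after their values were seen. The 6 genes and the lists were chosen with earlier results of these data known. Alternatives are in the closing section.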

Additional observations from a re-analysis of the deposited data

Results flagged for a closer look

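In alveolar macrophages 3 of the 6 genes were lower and in interstitial macrophages higher in the fibrosis library, and the difference between the classes was not tested, since each group is 1 library. The log2 ratios in alveolar and interstitial macrophages were -0.37 and 3.74 for Gpnmb, -0.19 and 1.70 for Cd9, and -0.18 and 1.79 for Lgals3. Outside the cluster led by Mmp12 the interstitial values were 1.37, 0.70 and 0.60.

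Cells without a class entered no comparison of classes, and in the fibrosis library 5 of the 6 genes stood in them above the control level of 38.4 CPM for Spp1, 22.7 for Gpnmb, 97.0 for Trem2, 455 for Cd9 and 137 for Cd63. The fibrosis values were 1411 for Spp1, 302 for Gpnmb, 137 for Trem2, 1056 for Cd9 and 632 for Cd63. Of the 551 cells 92 lay in the cluster led by Mmp12. These 92 held 3766 of the 3939 Spp1, 789 of the 843 Gpnmb and 300 of the 383 Trem2 UMIs of the unclassed fibrosis cells. Of Cd9 they held 1542 of 2948 UMIs and of Cd63 1124 of 1764. The fibrosis values above therefore do not describe the unclassed cells outside that cluster.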

How the results depend on the processing

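Of 149 recalculated values 92 stayed near the main value, 54 moved away from it and 3 changed sign. A ratio or share stayed when it lay inside the counting interval of the main value. Numbers of genes have no such interval and were held to a fixed fold limit. All values are log2 ratios of the fibrosis to the control library unless a percent is given. In alveolar macrophages whole clusters in place of gates gave 2.62 for Spp1, 1.3 for Trem2, 0.44 for Gpnmb and 0.092 for Lgals3, the last 2 with changed sign. Without the cluster led by Mmp12 the values were 0.83 for Spp1, -0.60 for Gpnmb and 0.12 for Trem2, and with its ungated cells added 2.46, 0.23 (changed sign) and 0.92; these 2 settings were chosen after seeing the data. Spp1 gave 1.66 with the stricter gate, 1.79 with cells thinned to 1000 UMIs and 2.18 with a mitochondrial limit of 5%, and Gpnmb gave -0.60 with thinned cells. In interstitial macrophages Spp1, Gpnmb and Trem2 gave 3.68, 1.37 and 0.40 with whole clusters and 3.79, 1.37 and 0.48 without the cluster led by Mmp12. Cd9 and Lgals3 gave 0.54 and 0.48, and 0.70 and 0.60, under these settings, in place of 1.70 and 1.79, so both were under 2-fold. There Spp1 gave 5.50 and Trem2 0.58 with thinned cells, and Spp1 gave 5.29 and Gpnmb 2.49 without doublet removal. Gpnmb gave 4.87 with the stricter gate. Cd63 gave 0.17 in alveolar and 0.26 in interstitial macrophages without the cluster led by Mmp12, and 1.20 and 0.14 with whole clusters. The share of alveolar macrophages with all 3 transcripts was 13.2% in control and 18.2% in fibrosis cells unthinned, 1.94% and 4.50% at 2000 UMIs, and 2.30% in fibrosis cells by clusters. Genes at least 2-fold higher in alveolar macrophages numbered 335, 102 with at least 100 UMIs and 611 with at least 1 UMI in each library, and those lower 189, 32 and 702; fewer or more genes enter under those minimums. Subtracting the level of B and T cells, leaving out shared barcodes, median-ratio scaling and a floor of 2000 UMIs changed no sign. No paired analysis was possible because the groups share only replicate number 1 and no test was made. No replicate can be left out of a group of 1. Depth limits co-detection, since the share of cells with all 3 transcripts grows with the UMIs per cell.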
